A study of Mus musculus with 6 samples.

Results

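The 7 genes described here, Irgm1, Irgm2, Igtp, Iigp1, Ifi47, Tgtp1 and Tgtp2, belong to the immunity-related GTPase (IRG) family. They were found by Ensembl identifier among the 55414 genes of the count table, and all 7 were present. The table held RNA-seq counts of sorted Paneth cells (PCs), which fill the crypt bottoms of the small intestine and release antimicrobial granules. The cells came from the small intestine of C57BL/6J mice, and every mouse in both groups was labelled as a knockout of Ifnar1 (IFNAR1 KO), which encodes a subunit of the receptor for type I interferons. There were 3 mice injected with phosphate-buffered saline (PBS) and 3 injected with tumour necrosis factor (TNF), all taken 15 h after the injection, with 1 library per mouse. The labels used here give no age, sex, TNF dose or litter, and no mouse with an intact Ifnar1 was analysed here.

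IRG proteins are interferon-inducible GTPases that defend cells against vacuolar pathogens such as Toxoplasma and Chlamydia. They fall into regulators, the IRGM proteins (Irgm1, Irgm2 and Igtp, also called Irgm3), which sit on the cell's own membranes, and effectors (Iigp1, Ifi47, Tgtp1 and Tgtp2, also called Irga6, Irgd and Irgb6), which load onto and disrupt the pathogen's vacuole. The regulators hold the effectors in an inactive state on host membranes, and the autophagy proteins that conjugate ATG8 are needed for correct targeting. Transcription of the family is driven mainly by interferon-gamma, and partly by type I interferon. In the intestine, Irgm1 has been studied for its part in Paneth cell granules and autophagy.

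The sequences show the division into regulators and effectors and how far the copies can be told apart. The first GTP-binding motif of the proteins (G1, or P-loop) carries a lysine in effectors and a methionine in regulators. The 30 coding bases around that codon are shown for 6 genes, 5′ to 3′ on the coding strand of the GRCm39 assembly, with the codon in capitals. All 6 lie on chromosome 11.
Irgm1, chr11:48757585-48757614, minus strand: actggggactctggcaatggcATGtcatct
Irgm2, chr11:58110518-58110547, plus strand: actggggactctggcaatggcATGtcatct
Igtp, chr11:58097098-58097127, plus strand: actggggactctggcaatggcATGtcatct
Ifi47, chr11:48986472-48986501, plus strand: atcgggcagtctgggactggcAAGtccagt
Tgtp1, chr11:48878491-48878520, minus strand: acaggggaaacaggcgcagggAAGtccact
Tgtp2, chr11:48950358-48950387, minus strand: acaggggaaacaggcgcagggAAGtccact
The 3 regulators had the methionine codon ATG and the same 30 bases. Over their whole coding sequences, however, the regulators were only 61.5% to 65.0% identical to each other. Ifi47 and the Tgtp genes had the lysine codon AAG. Tgtp1 and Tgtp2 matched at 1241 of 1245 coding bases, or 99.7%.

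The same near-identity limits what a count can say. Of all 150-base windows in the transcripts of Tgtp1, 66.6% also occurred in a transcript of another gene, and for Tgtp2 the share was 68.4%, so these counts cannot be assigned to 1 copy with certainty. For the other 5 members the share was 1.40% or less. With windows of 100 bases the shares were 74.7% for Tgtp1, 76.8% for Tgtp2 and 4.08% or less for the others. Igtp and Irgm2 lie next to each other on the same strand and share 162 exonic bases.

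The region around the transcription start of these genes was searched for the letters that interferon-activated factors bind. The searched letters were TTCNNNGAA for the gamma-activated site (GAS) of interferon-gamma target genes, and GAAANNGAAA for the core of the interferon-stimulated response element (ISRE), which interferon regulatory factors bind. Both strands of the window from 250 bases before to 50 bases after each RefSeq start (GRCm38.p6 table) were read, and 6 of the 7 members had a window. The windows were placed on GRCm39 by exact match. The sites are shown with 4 bases on each side and with the matched letters in capitals, because the 6 genes differ in them.
Igtp, chr11:58090333-58090361, plus strand: ccatTTCTAGGAActGAAACTGAAAgctg
Irgm2, chr11:58105724-58105752, plus strand: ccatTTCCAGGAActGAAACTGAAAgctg
Tgtp1, chr11:48883137-48883165, minus strand: ccatTTCCAGGAAtcGAAACTGAAAccta
Tgtp2, chr11:48955096-48955124, minus strand: ccatTTCCAGGAAtcGAAACCGAAAccta
Irgm1, chr11:48762258-48762281, minus strand: tcaaGAAATAGAAACCGAAActga
Ifi47, chr11:48977752-48977775, plus strand: tcctTTTCTTTTTCCTGGAAatgt
Igtp, Irgm2, Tgtp1 and Tgtp2 shared one layout, a GAS followed after 2 bases by an ISRE core. Irgm1 had 2 overlapping ISRE cores and no GAS in its window. The RefSeq window of Ifi47 held none of the letters, but 2 of its 6 GENCODE start windows did, and there the ISRE core lay on the opposite strand and overlapped the GAS. In the GENCODE start windows, a GAS was in 1 of 5 for Igtp, 3 of 3 for Irgm2, 2 of 3 for Tgtp1 and 2 of 2 for Tgtp2. An ISRE core was in 2 of 5, 3 of 3, 1 of 3 and 2 of 2 of these. Irgm1 had an ISRE core in 5 of 8 and a GAS in 0. Among all 32851 promoter windows of the table, 8.30% held a GAS, 3.44% an ISRE core and 0.454% both. These shares are for RefSeq windows, not for the GENCODE start windows. The NF-kB consensus, present in 8.46% of all windows, was not found in a window of these 6 genes. Exons of some transcripts of Irgm1, Igtp, Tgtp1 and Ifi47 cover the shown sites, since these genes have several annotated starts. A match describes letters and does not show binding.

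The libraries were examined before the members. Total counts ranged from 12747484 to 17039511, and 3 counts, the limit that a count of 0 allows, corresponded to 0.146 to 0.254 CPM (counts normalised to a common library size after trimmed mean of M-values, TMM, scaling), a limit that covers counting error only. The first principal component, with 48.9% of the variance, placed TNF replicate 1 at -39.3 beside the PBS libraries at -35.8 to -28.7, while TNF replicates 2 and 3 lay at 63.0 and 73.1. Results for the tested members are therefore given with and without TNF replicate 1, which is kept in its labelled group. Many single genes of the lists below are given with all libraries only. Since TNF replicate 1 was singled out by its counts in these same data, p values and intervals without it are descriptive. They do not hold the 5% level. The PC label fitted the markers, since the 8 PC markers summed to between 270441 and 569210 CPM. Of 12 T and NK cell markers, 8 had 0 counts in every library, and the list summed to 0.402 CPM or less. Markers of B and plasma cells summed to 0.0733 CPM or less and those of endothelial cells to 0.391 CPM or less. The 8 genes listed as myeloid markers summed to between 9.14 and 41.4 CPM in PBS and between 21.1 and 33.8 CPM in TNF. Most of this was Ptprc (3.89 to 33.8 CPM), which is not specific to myeloid cells, and Cd14 (1.53 to 10.9 CPM). Csf1r, Adgre1, Itgax and Tyrobp had 0.333 CPM or less in every library. Markers of some other epithelial cells also differed in TNF replicates 2 and 3. The sums of tuft cell markers (346 to 1203 CPM in PBS, 360 to 779 CPM in TNF) overlapped. So did those of enteroendocrine markers (23.3 to 88.1 CPM in PBS, 21.8 to 98.8 CPM in TNF). The 4 stem cell markers, most of them Olfm4 counts, summed to 2119 to 2585 CPM in PBS, 4087 CPM in TNF replicate 1, but 361 and 372 CPM in TNF replicates 2 and 3, although Lgr5 in TNF replicate 2 (68.2 CPM) was within the PBS range. The 8 enterocyte markers summed to 144 to 218 CPM in PBS, 149 CPM in TNF replicate 1, and 45.7 and 42.8 CPM in the other two. Fabp1 among them stayed within its PBS range in TNF replicates 2 and 3 (10.7 and 10.1 CPM). The 5 goblet cell markers summed to 2958 to 3324 CPM in PBS. Their sums were 3073, 2959 and 2270 CPM in TNF replicates 1, 2 and 3. Muc2 in TNF replicate 2 (2575 CPM) was above every PBS library. Without TNF replicate 1, 4 of the 5, not Muc2, were lower past 5% (edgeR median log2 fold change -1.70), beside 5.40% of all genes. Of the 8 PC markers, Clps was lower there (-2.13, edgeR adjusted p 0.00434). Their part in the results below was not tested. In such bulk samples, fewer cells of a type and less RNA per cell cannot be told apart.

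In GENCODE vM39 on GRCm39, 6 of the members are protein-coding genes of chromosome 11. Irgm1 (ENSMUSG00000046879) spans 48752795 to 48763164, Tgtp1 (ENSMUSG00000078922) 48876154 to 48884999, Tgtp2 (ENSMUSG00000078921) 48948021 to 48955033 and Ifi47 (ENSMUSG00000078920) 48967412 to 48987813. Igtp (ENSMUSG00000078853) spans 58089840 to 58098417 and Irgm2 (ENSMUSG00000069874) 58090444 to 58113615. Iigp1 (ENSMUSG00000054072) is on chromosome 18, from 60506680 to 60525706.

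RNA of Irgm1, Irgm2, Igtp and Ifi47 was readily counted in sorted PCs, whereas that of Iigp1, Tgtp1 and Tgtp2 was near 0 in both groups. In TNF replicates 2 and 3 the first 4 genes stood at 1.26 to 3.29 times the PBS mean, above every PBS mouse. Of all tested genes, 24.1% were above every PBS library in both. For Irgm2 in TNF replicate 3, this depended on the TMM scaling. In TNF replicate 1 Ifi47 alone of these 4 was above the PBS mice, which also depended on the scaling. Over all 6 libraries none of the 4 passed the 5% threshold.

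Irgm1, the regulator found on Golgi and lysosomal membranes, was on average the most abundant member. Its level was 23.3, 14.1 and 20.5 CPM in PBS replicates 1, 2 and 3, and 14.9, 49.4 and 40.7 CPM in TNF replicates 1, 2 and 3. TNF replicates 2 and 3 lay above every PBS library, at 2.56 and 2.11 times the PBS mean, whereas TNF replicate 1 lay within the PBS range at 0.774 times the mean. Over all 6 libraries the log2 fold change was 0.86 (SE 0.40, 95% confidence interval -0.04 to 1.76, edgeR adjusted p 0.429), which did not pass the 5% threshold. Without TNF replicate 1 it was 1.24 (SE 0.24, interval 0.73 to 1.76, edgeR adjusted p 0.00538), so TNF replicate 1 decided this call.

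Igtp, the regulator that lies beside Irgm2, had 2.66, 4.60 and 1.69 CPM in the PBS mice, and 2.21, 9.81 and 7.88 CPM in the TNF mice. As for Irgm1, the first TNF library was among the PBS values and the other two were above all of them. The log2 fold change was 1.15 (SE 0.58, interval -0.15 to 2.46, edgeR adjusted p 0.451) with all libraries and 1.58 (SE 0.43, interval 0.64 to 2.53, edgeR adjusted p 0.0307) without TNF replicate 1.

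Irgm2 had 2.45, 4.66 and 4.77 CPM in the PBS mice, and 3.22, 8.79 and 4.98 CPM in the TNF mice. TNF replicate 3 exceeded the highest PBS library only slightly, so the difference rested on TNF replicate 2. That slight excess depended on the scaling. Irgm2 had 62 of 13583421 raw counts in TNF replicate 3 and 70 of 13535764 in PBS replicate 2. The log2 fold change was 0.52 (SE 0.47, interval -0.52 to 1.57, edgeR adjusted p 0.676), 0.82 (SE 0.42, adjusted p 0.230) without TNF replicate 1, and 0.02 without TNF replicate 2. Irgm2 passed the threshold in neither fit.

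**Figure D1:**
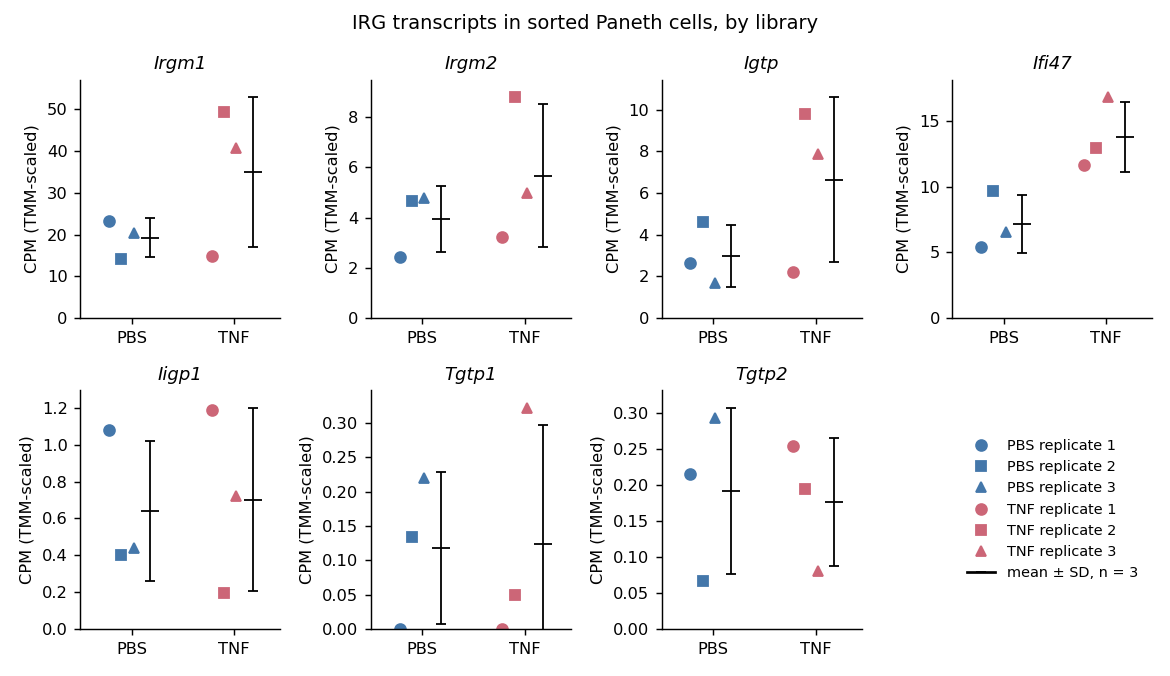
TMM-scaled CPM of each IRG gene (vertical axes, each from 0) in the 3 PBS and 3 TNF libraries, with marker shapes for the replicate number and black bars for mean ± SD (n = 3). In the panels of Irgm1, Irgm2 and Igtp, TNF replicate 1 sits among the PBS libraries, whereas all 3 TNF libraries of Ifi47 sit above them.

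Ifi47 was the one member whose groups did not overlap in TMM-scaled CPM. This lysine-type effector had 5.40, 9.66 and 6.53 CPM in the PBS mice, and 11.6, 12.9 and 16.8 CPM in the TNF mice. TNF replicate 1, which held PBS-like levels of the 3 regulators, was here at 1.61 times the PBS mean, beside 1.80 and 2.33 times in replicates 2 and 3. The separation of the groups depended on the scaling. Ifi47 had 137 of 14769915 raw counts in TNF replicate 1 and 145 of 13535764 in PBS replicate 2. The log2 fold change was 0.94 (SE 0.30, interval 0.26 to 1.61). Its edgeR p was 0.0121 before and 0.300 after adjustment over the 13026 tested genes, so it did not pass either. Without TNF replicate 1 it was 1.06 (SE 0.30, edgeR adjusted p 0.0370). Of all tested genes, 9.07% had every TNF library above every PBS library.

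Iigp1, Tgtp1 and Tgtp2 were close to the limit of counting. Iigp1, an effector studied in Toxoplasma infection, had 15, 6 and 6 counts in PBS and 14, 4 and 9 in TNF. Tgtp1 had 0, 2 and 3 counts in PBS and 0, 1 and 4 in TNF, and Tgtp2 had 3, 1 and 4 in PBS and 3, 4 and 1 in TNF. The groups of all 3 genes overlapped. None of them passed the filter on low counts (about 10 counts in at least 3 libraries), so they were not tested in the main comparison. Summing the Tgtp copies, whose reads cannot be separated, gave 3, 3 and 7 counts in PBS and 3, 5 and 5 in TNF, which was still under the filter. Without a filter the log2 fold change of the sum was -0.08 with an SE of 1.60, and that of Iigp1 was 0.08 with an SE of 1.15, so a change of several fold either way was not detectable at this depth.

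For the family, 4 of the 7 members passed the filter and 0 of these 4 passed 5% with edgeR, where the share over all 13026 tested genes was 0%. At an unadjusted p under 0.05 there was 1 with edgeR and limma-voom and 2 with DESeq2, where 12.3%, 12.8% and 12.9% of all genes had such a p. DESeq2 called 0 members and 1.58% of all tested genes as higher in TNF. With TNF replicates 2 and 3 alone, 3 of 4 tested members (Irgm1, Igtp and Ifi47) were higher past 5% and 9.10% of all genes were. With limma-voom and sample weights, which gave TNF replicate 1 the lowest weight (0.331), 2 members (Irgm1 and Ifi47) were called against 7.06% of all genes. In TNF replicates 2 and 3, all 4 tested members exceeded every PBS library in TMM-scaled CPM, as did 24.1% of all genes. These are also the libraries with the low stem cell and enterocyte marker sums given above. Goblet markers other than Muc2 were lower there too, though the goblet sum in TNF replicate 2 was within the PBS range. The median log2 fold change of the 4 was 0.90, against -0.00060 over all tested genes. It was 1.15 without TNF replicate 1, against -0.01.

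**Figure D2:**
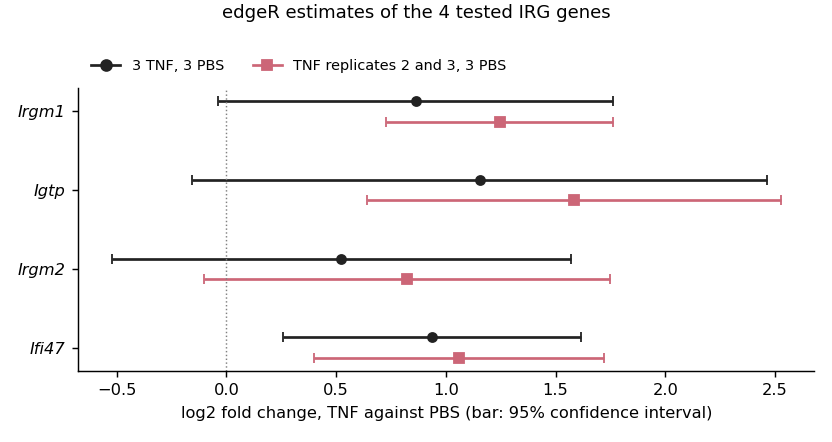
edgeR log2 fold change of TNF against PBS (horizontal axis) for the 4 tested IRG genes, with 95% confidence intervals as bars, from all 6 libraries (black circles) and without TNF replicate 1 (red squares). Leaving out TNF replicate 1 moved the intervals of Irgm1 and Igtp above 0, and the interval of Irgm2 included 0 in both fits.

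Levels were compared between members per kilobase of exon, since longer transcripts collect more reads. In PBS, Irgm1 stood at 3.03 ± 0.736 CPM per kilobase (SD, n = 3) and Ifi47 at 2.53 ± 0.776. They were followed by Irgm2 at 1.06 ± 0.350 and Igtp at 0.654 ± 0.325. Iigp1 stood at 0.101 ± 0.060, Tgtp2 at 0.0653 ± 0.0392 and Tgtp1 at 0.0360 ± 0.0339. Neighbours in this order overlapped, except that Ifi47 exceeded Irgm2 and Igtp exceeded Iigp1 in every library of both groups, without overlap of their ranges. In TNF, Irgm1 reached 5.50 ± 2.82, Ifi47 4.85 ± 0.946, Irgm2 1.51 ± 0.760 and Igtp 1.46 ± 0.868. Among these 7 genes, the other 3 effectors were at trace level in both groups. With the longest transcript in place of all exons the order in PBS was the same, but in TNF Igtp (1.80) then stood above Irgm2 (1.58).

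**Figure D3:**
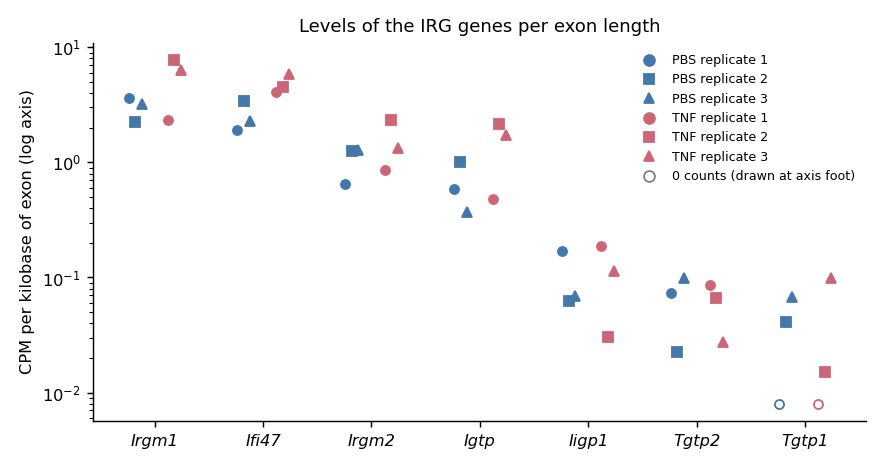
CPM per kilobase of exon (log axis) of each IRG gene in the 6 libraries, ordered by the PBS mean, with colours for the group and shapes for the replicate. Irgm1 and Ifi47 lie highest, Irgm2 and Igtp below them, and Iigp1, Tgtp2 and Tgtp1 lie lowest, with open symbols for 0 counts.

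The makeup of the family also varied between mice of the same group. Irgm1 gave 66.3%, 42.0% and 59.5% of the summed CPM of the 7 members in PBS and 44.7%, 60.7% and 56.9% in TNF, so the groups overlapped. The sum itself was 35.1, 33.6 and 34.4 CPM in the PBS mice, and 33.4, 81.3 and 71.5 CPM in the TNF mice. The PBS mice thus lay close together for the family sum although their individual genes differed. TNF replicate 1 had a PBS-like sum but a CPM ratio of Ifi47 to Irgm1 of 0.778, the highest of the 6 libraries, against 0.232 to 0.684 in PBS.

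Of the further IRG family genes written into a list, 11 were matched to the table, and 4 of them (9930111J21Rik1, Gm12187, Iigp1c and Irgc) had 0 counts in all libraries. Gm12250 had 8, 19 and 4 counts in PBS and 31, 82 and 48 in TNF. That is at most 1.27 CPM in PBS and at least 2.63 CPM in TNF. All TNF libraries were thus above all PBS libraries, as for 9.07% of all tested genes. RefSeq gives Irgb10, an effector, as another name of this gene, and GENCODE types it as a transcribed processed pseudogene. How reads that map to several places were counted is not known, so its counts may include reads of related copies. Its log2 fold change was 2.28 with an SE of 0.64 (edgeR adjusted p 0.278). It passed 5% without TNF replicate 1 (2.46, edgeR adjusted p 0.0324) and with DESeq2 (2.28, adjusted p 0.0375). Among PBS libraries only replicate 2 had over 10 counts, so Gm12250 entered these fits through the TNF libraries where it was high. Like Ifi47, Gm12250 was above the PBS range in TNF replicate 1 too. Gm5431 had 1, 8 and 2 counts in PBS and 4, 41 and 17 in TNF, and it missed the filter of the main comparison. Irgq, a distant relative within the family, did not pass (edgeR log2 fold change -0.10 with SE 0.26, adjusted p 0.906). Gm4841, F830016B08Rik, 9930111J21Rik2 and Gm12185 had 7 counts or fewer in any library.

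The guanylate-binding proteins (GBPs), the larger GTPases that act on the same vacuoles, were the comparison family. Of 11 genes, 4 were tested, and 0 passed 5% with edgeR. At an unadjusted edgeR p under 0.05 there were 2, where 12.3% of all genes had such a p. DESeq2 called 1 as higher, beside 1.58% of all genes. Of the same 4 genes, 3 (Gbp2, Gbp3 and Gbp7) were higher past 5% without TNF replicate 1, where 9.10% of all genes were. Gbp5, with 0, 0 and 1 counts in PBS and 0, 88 and 36 in TNF, entered that fit only through the libraries where it was high. Gbp2 had 0.936, 1.47 and 0.733 CPM in the PBS mice, and 0.509, 48.6 and 37.6 CPM in the TNF mice. Its log2 fold change without TNF replicate 1 was 5.37 (SE 0.30, edgeR adjusted p 2.1e-06), where the tested IRG members had 0.82 to 1.58. The median of these 4 GBPs was 2.17 with all libraries and 2.71 without TNF replicate 1. The difference between the families was not tested.

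The pathway above the IRG genes was described from ligand to inhibitor, over 26 genes. The ligand genes Ifng, Ifnb1, Ifnl2 and Ifnl3 had 0 counts in every library, which bounds their RNA in these sorted cells and says nothing of ligand from other cells. Both chains of the interferon-gamma receptor were higher in all 3 TNF libraries than in every PBS library, as were 9.07% of all tested genes. For Ifngr2 this depended on the TMM scaling. TNF replicate 1 had 445 of 14769915 raw counts and PBS replicate 1 had 447 of 14477345. Ifngr1, the ligand-binding chain, had 30.1, 21.9 and 29.7 CPM in the PBS mice, and 42.2, 64.6 and 64.1 CPM in the TNF mice (edgeR log2 fold change 1.07 with SE 0.24, adjusted p 0.270). Ifngr2, the chain that brings JAK2, had 32.2, 23.5 and 31.0 CPM in the PBS mice, and 37.7, 162 and 148 CPM in the TNF mice (edgeR log2 fold change 2.00 with SE 0.47, adjusted p 0.270). Both passed without TNF replicate 1 (1.26, adjusted p 0.00209, and 2.44, adjusted p 4.1e-05) and with DESeq2 (adjusted p 0.0184 and 0.00205). Of the other receptor genes, Ifnlr1 had 4.03, 4.46 and 4.47 CPM in the PBS mice, and 1.78, 2.44 and 2.09 CPM in the TNF mice. Its edgeR log2 fold change was -1.03 (SE 0.40, adjusted p 0.361). Ifnar2 had 0.69 (SE 0.36, adjusted p 0.472) and Il10rb 0.03 (SE 0.21, adjusted p 0.963). The knocked-out Ifnar1 was counted at 5.18 to 9.53 CPM in PBS and 5.17 to 12.7 CPM in TNF. A gene-level count does not show whether the disrupted part was read.

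None of the kinases and transcription factors passed with all libraries. The receptor kinases Jak1 and Jak2 had log2 fold changes of 0.24 (SE 0.23, edgeR adjusted p 0.713) and 0.23 (SE 0.33, adjusted p 0.811). Stat2 and Irf9, parts of an ISRE-binding complex, passed without TNF replicate 1 (1.02, adjusted p 0.0142, and 1.41, adjusted p 0.00894), and had 0.56 (adjusted p 0.673) and 1.02 (adjusted p 0.401) with all libraries. Irf1, an interferon-gamma target that drives IRG transcription, was within 31.8 to 34.6 CPM in TNF and 34.0 to 38.8 CPM in PBS (edgeR log2 fold change -0.15 with SE 0.18, adjusted p 0.780). The edgeR log2 fold changes of Irf2 and Irf8, further factors of the family, were -0.20 (SE 0.23, adjusted p 0.764) and 0.00 (SE 0.21, adjusted p 0.995). Nlrc5, the class I MHC transactivator, had -0.05 (SE 0.74, adjusted p 0.983), and Batf2 missed the filter with 27, 0 and 8 counts in PBS and 2, 28 and 0 in TNF.

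Of 5 inhibitors, the 4 that were tested with all libraries did not pass. Socs3 blocks JAK kinases through cytokine receptors. It had 34.1, 24.6 and 22.4 CPM in the PBS mice, and 7.55, 5.08 and 20.4 CPM in the TNF mice. Its edgeR log2 fold change was -1.30 (SE 0.46, adjusted p 0.329), and TNF replicate 3 lay just below the lowest PBS library. Usp18, an inhibitor of type I interferon receptor signalling, missed the filter with 2, 9 and 9 counts in PBS and 2, 460 and 233 in TNF. Socs1, which blocks JAK kinases, had a log2 fold change of 0.40 with an SE of 0.60 (edgeR adjusted p 0.824), and the phosphatase gene Ptpn2 had -0.28 (SE 0.21, adjusted p 0.628). Over the 26 signalling genes, 20 were tested and 0 passed with edgeR. At an unadjusted edgeR p under 0.05, 3 were higher and 2 lower, where 12.3% of all genes had such a p. DESeq2 called 2 as higher (Ifngr1 and Ifngr2), beside 1.58% of all genes. Of the same 20 without TNF replicate 1, 4 were higher past 5% (Ifngr1, Ifngr2, Stat2 and Irf9) and 0 were lower, where 9.10% of all genes were higher and 5.40% lower. Usp18 passed there too, but it entered that fit only through the TNF libraries where it was high. The median log2 fold change of the 20 was 0.08 with all libraries and 0.37 without TNF replicate 1.

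**Figure D4:**
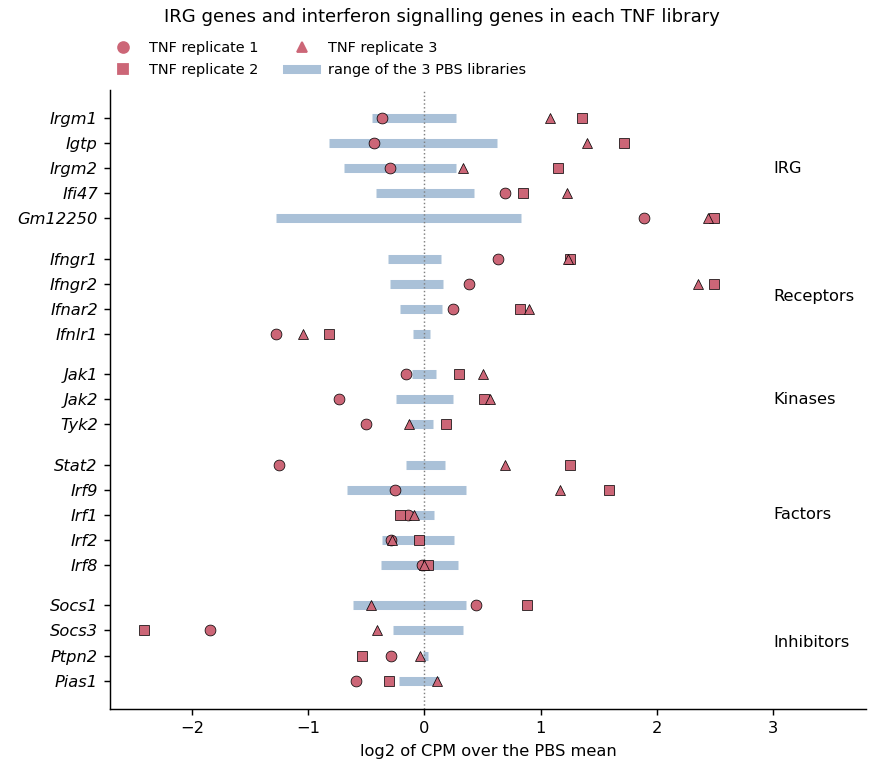
log2 of each TNF library's CPM over the PBS mean (horizontal axis) for IRG genes and interferon signalling genes grouped by role, with blue bars for the range of the 3 PBS libraries. TNF replicate 1 (circles) lies in or below the PBS range for Irgm1, Igtp, Irgm2, Stat2 and Irf9. It lies above the range for Ifi47, Gm12250, Ifngr1 and Ifngr2, which for Ifi47 and Ifngr2 depends on the TMM scaling.

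The ATG8 conjugation genes, on which IRG targeting depends, and the receptor genes listed with them were all tested. Of the 15, 0 passed with edgeR. At an unadjusted edgeR p under 0.05, 2 were higher and 2 lower, where 12.3% of all genes had such a p. DESeq2 called 1 as higher, beside 1.58% of all genes. Atg5, part of the enzyme that attaches ATG8 to membranes, had a log2 fold change of 0.16 with an SE of 0.22 (edgeR adjusted p 0.807). Without TNF replicate 1, 4 were higher (Gabarapl1, Map1lc3a, Sqstm1 and Optn) and 1 was lower (Atg7), beside 9.10% and 5.40% of all genes. The median was 0.30 with all libraries and 0.47 without TNF replicate 1. Gabarapl1, an ATG8 protein, had 39.9, 27.4 and 32.7 CPM in the PBS mice, and 35.0, 128 and 128 CPM in the TNF mice, so TNF replicate 1 again lay within the PBS range.

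The genes whose pattern over the 6 libraries was most like the mean of the 4 tested members were Ccndbp1, Zfand2a, Tap2, Psmb8, Mafg, Map3k6, H2-Q4, Zwint, Ptprh and Samtor, with Pearson correlations of 0.989 to 0.997 among 9757 genes compared. Tap2 (peptide transport), Psmb8 (immunoproteasome) and H2-Q4 (class I MHC) are genes of antigen presentation. Tap2 lay between 4.82 and 8.26 CPM in the PBS mice and at 5.94, 72.1 and 41.2 CPM in TNF replicates 1, 2 and 3. With 6 libraries that share the split between TNF replicates 2 and 3 and the rest, such correlations describe these libraries only.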

How the data were processed

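The deposited values were raw counts per Ensembl gene, 1 column per mouse, and 0 columns of sample values were unused. Per the labels, the authors sequenced total RNA with single-end reads, and the submitters' processing notes name the mm39 build, FastQC, Trimmomatic 0.39, STAR 2.7.10a and DESeq2. For the counting tool, strand setting and multi-mapping reads: not given in the sources used here. Identifiers were matched to GENCODE vM39 (54749 of 55414, and the rest held 0.0193% of counts).

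In R 4.3.3, edgeR 4.0.16 filtered genes (minimum count 10, total 15), scaled by TMM and tested TNF against PBS with the two-sided quasi-likelihood test, with Benjamini-Hochberg adjustment over 13026 genes. Passing means an adjusted p under 0.05. The SE is the fold change over the root of F. The test was run on simulated data first. DESeq2 1.42.0 and limma 3.58.1 were alternatives, besides other scalings and filters, each library left out, a replicate block and stricter thresholds. Named genes were the members, list genes and the 10 most alike genes. Gbp2, Gm12250, Gabarapl1, Usp18, Tap2, other list genes past 5%, and Ifnlr1 were singled out after their values were seen. Members and lists were chosen with earlier results of these data known. 1 gene of the signalling list is counted in it but not reported here.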

Additional observations from a re-analysis of the deposited data

How the results depend on the processing

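With edgeR on all libraries 0 genes passed 5%, and 0 of the 4 tested IRG members did. Leaving out 1 library at a time gave 0 to 1980 genes and 0 to 3 members, and the highest values of both came without TNF replicate 1. The number of genes was 690 without the low-count filter, 242 with DESeq2 and 1501 with limma-voom and sample weights, which also called 2 members. The cause was not tested. All other scalings, filters and thresholds gave 0 genes and 0 members. At an unadjusted p under 0.05, 1075 genes were higher and 521 lower with TMM, but 540 higher and 733 lower with library sizes alone, which moved the median log2 fold change of all genes to -0.11. The log2 fold changes of Irgm1 (0.49 to 1.24), Ifi47 (0.77 to 1.20), Igtp (0.72 to 1.61) and Irgm2 (0.02 to 0.82) were positive in all 16 alternatives, and their median ranged from 0.61 to 1.15. Adjusted p ranged from 0.00538 to 0.920 for Irgm1, 0.0300 to 0.911 for Ifi47, 0.0307 to 0.920 for Igtp and 0.230 to 0.994 for Irgm2. The labels do not say whether the replicate numbers pair the mice. Correlations of deviations of same-numbered libraries were -0.01, -0.07 and 0.03, which with 3 libraries per group cannot settle it. With the replicate number as a block, 0 genes and 0 members passed, and the members' median was 0.85. Per kilobase of the longest transcript, Irgm1, Ifi47 and Iigp1 rose in level by more than 1 SD in PBS, to 5.03, 3.74 and 0.197 CPM. The low counts of Iigp1, Tgtp1 and Tgtp2 limit what these libraries can show of them.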
